A study of Mus musculus with 2 samples.

Results

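The genes described here are 33 smooth muscle contractile and cytoskeletal genes, listed by name and matched by Ensembl identifier to the 27998 genes of the NG2-DsRed library and the 32285 genes of the Tie2-GFP library. All 33 were matched in both. They are 4 actins, 4 myosin chains and kinases, 11 genes of the thin filament, 6 regulators, 6 genes of adhesion sites and actin cross-links, and 2 intermediate filament genes. Single cells of the mouse stria vascularis, the vascularised epithelium of the cochlear lateral wall, were measured as UMI counts (unique molecular identifiers, 1 per captured RNA molecule) in 1 library per reporter line. NG2-DsRed mice carry DsRed under the promoter of Cspg4, which is active in mural cells and also in some other cells, and Tie2-GFP mice carry GFP under the promoter of the endothelial receptor Tie2. Mice of both lines were 1 to 3 months old and untreated, the stria vascularis of 10 mice (20 cochleae) was pooled for each library, and by the labels live cells were sorted on the reporter. Both sexes were used in the study.

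Cell barcodes were put into classes by genes that are not members. A barcode was called mural when at least 3 of Pdgfrb, Rgs5, Vtn, Notch3 and Cspg4 had a UMI and at most 1 of 6 endothelial genes (Pecam1, Cdh5, Cldn5, Flt1, Egfl7 and Ramp2) had one. It was called endothelial when at least 3 of the 6 endothelial genes and at most 1 of the 5 mural genes had a UMI, intermediate when Dct, Tyr and Kcnj10 all had one, and mixed when at least 3 endothelial and at least 2 mural genes had one. The NG2-DsRed library of 201 barcodes held 99 mural, 16 endothelial, 45 mixed and 23 intermediate barcodes, 2 that met the intermediate and another rule, and 16 of no class. The Tie2-GFP library of 633 barcodes held 4 mural, 352 endothelial, 32 mixed and 87 intermediate barcodes, and 158 of no class. No barcode sequence was shared by the libraries. Median depth in the NG2-DsRed library was 3027 UMIs in mural, 6203 in endothelial and 10383 in intermediate barcodes, so shares of barcodes with a UMI are also given at an equal depth of 1473 UMIs. In the mural barcodes 3 of 5 fibroblast genes (Col1a1, Dcn and Lum), 5 of 5 macrophage genes and 7 of 7 skeletal muscle genes were at 0 UMIs. The fibroblast gene Col1a2 had 76 UMIs (224 CPM) and Pdgfra 1, and Pmp22, a gene of Schwann and other cells, had 300.4 CPM. With 1 library per line no test between classes or lines was possible, and every interval covers counting error only.

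Smooth muscle shortens when myosin, switched on by phosphorylation of its regulatory light chain, pulls on filaments of smooth muscle actin. Tropomyosins, caldesmon and transgelins lie along the actin filament, and vinculin, talin and filamin tie the filaments to adhesion sites in the membrane. Along a vessel bed these genes are known to be strong in the smooth muscle of arterioles, weaker in the mural cells next to it, and weak or absent in pericytes of the capillaries, which carry the potassium channel subunits Kcnj8 and Abcc9 instead. Cytoplasmic actins, nonmuscle tropomyosins and vimentin are used by most cells.

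Mural barcodes held UMIs of 31 of the 33 members. Cnn1, which encodes the smooth muscle calponin, and Synpo2 had none among 339551 UMIs, which allows a level of up to 8.84 CPM (counts per 1000000 UMIs of the class). Each UMI tags the 3′ end of 1 molecule, so these levels were not divided by gene length. Actb, a cytoplasmic actin, was the highest member at 10747 CPM (95% Poisson interval 10401 to 11101) and the gene of rank 2 in these barcodes. Smooth muscle actin Acta2 followed with 4026 CPM (3815 to 4245), then the transgelin gene Tagln with 3010 CPM (2828 to 3200). The regulatory light chain Myl9 had 2583 CPM (2415 to 2760) and the essential light chain Myl6 had 2229 CPM (2073 to 2394). Caldesmon (Cald1, 1408 CPM), the cytoplasmic actin Actg1 (1369 CPM) and the tropomyosins Tpm1 (1287 CPM) and Tpm2 (1231 CPM) lay close together. Destrin (Dstn), which cuts and unloads actin filaments, had 910 CPM, filamin A (Flna) 671 CPM and the smooth muscle myosin heavy chain Myh11 660 CPM (576 to 752). The enteric smooth muscle actin Actg2 had 2 UMIs, both in 1 barcode. Coding regions of the actins are near-identical, and how reads that fit several genes were counted is not given in the sources used here.

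**Figure D1:**
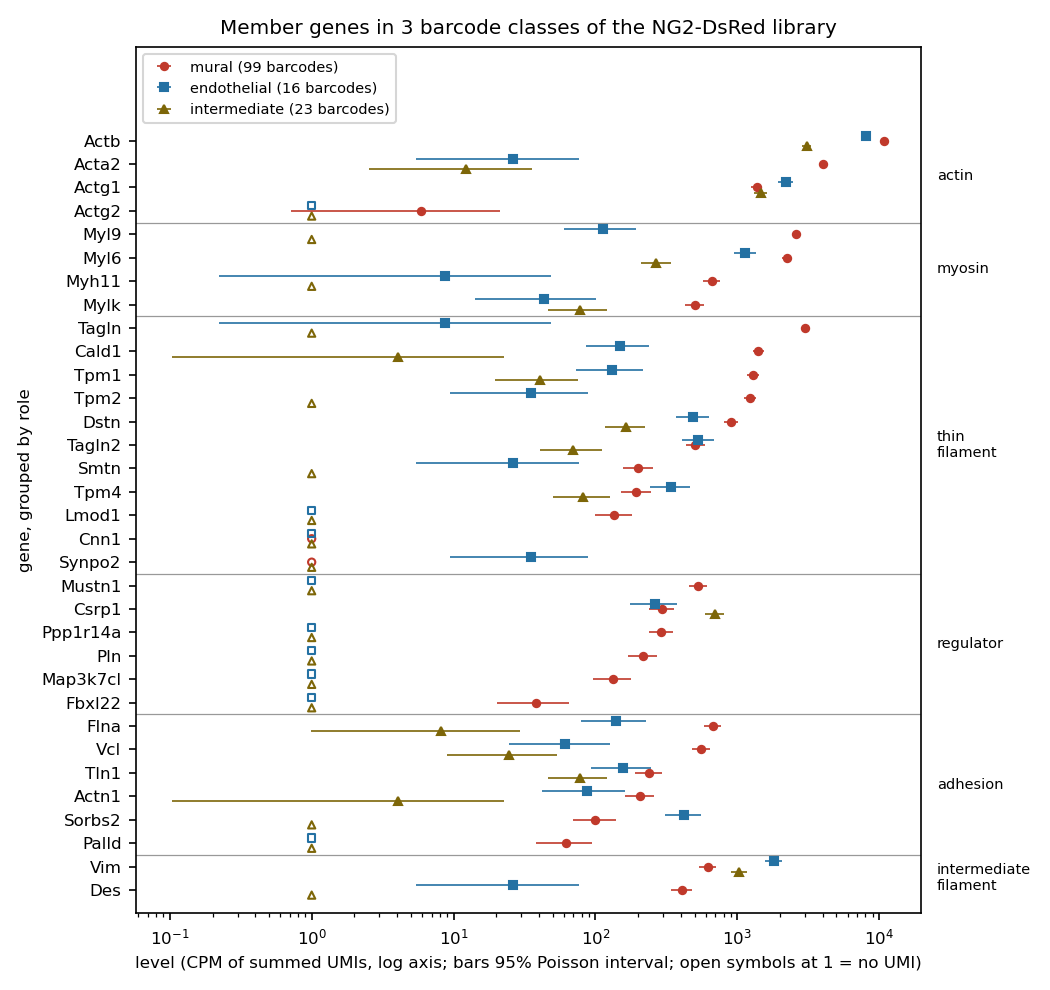
Level of each member in the mural, endothelial and intermediate barcodes of the NG2-DsRed library, as CPM of summed UMIs on a log axis with 95% Poisson intervals, grouped by role. Acta2, Tagln, Myl9 and Myh11 lie between 660 and 4026 CPM in mural barcodes and at 113 CPM or less in the other classes, while Actb and Actg1 are above 1000 CPM in all.

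The mean level hid an uneven spread between mural barcodes. Acta2 had a UMI in 43 of 99 mural barcodes, Tagln in 45 and Myh11 in 35, and the 10 barcodes with the most UMIs held 70.4% of all Acta2 UMIs and 70.9% of all Tagln UMIs. The highest barcode held 167 UMIs of Acta2, or 202 per 10000 of its UMIs, against a median of 0. Myl9 had a UMI in 92 barcodes, Cald1 in 94 and Actb in all 99. For Cald1 the top 10 barcodes held 32.0% of the UMIs. The variance of the counts over that of Poisson sampling at equal level was 55.0 for Acta2, 38.9 for Tagln and 7.61 for Myh11, against 2.09 for Cald1 and 1.09 for the actin-associated smoothelin gene Smtn. The median of this ratio over 5749 genes with at least 10 UMIs was 1.23. For a like relative spread the ratio is larger at a higher level, and these genes were not matched by level. Actb, with 3649 UMIs, had a ratio of 15.8, and Smtn had 68 UMIs.

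Against the endothelial barcodes of the same library, 20 members were at least 2-fold higher in mural barcodes, 9 lay within 2-fold, 3 were at least 2-fold lower and Cnn1 had no UMI. Of 12402 genes with a UMI in either class, 24.5% were 2-fold higher and 20.6% were 2-fold lower. The members' median log2 ratio was 3.14, beside 0.02 over all genes. Tagln had 1022 UMIs in mural and 1 in endothelial barcodes (log2 ratio 7.85, interval 5.95 to 13.74). Acta2 had 1367 and 3 (7.04, 5.71 to 9.54), and Myh11 had 224 and 1 (5.66, 3.75 to 11.55). These 3 genes were nearly absent from the endothelial barcodes. Of the genes of the mural rule, Rgs5 had 1309 CPM in these endothelial barcodes and the other 4 had no UMI. The part of RNA from mural cells in the ratios was not tested.

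Further down the list, Tpm2 (log2 ratio 4.97) and Myl9 (4.46) were followed by the intermediate filament gene of muscle, desmin (Des, 3.74), and by myosin light chain kinase (Mylk, 3.39). Tpm1 (3.25), Cald1 (3.21) and vinculin (Vcl, 3.09) formed the next step. Mustn1, the gene of a small muscle protein, had 180 UMIs in mural and 0 in endothelial barcodes. Its level was at least 20.2-fold higher with the floor set at 3 counts over the class. Ppp1r14a, an inhibitor of myosin phosphatase, was at least 11.1-fold higher. Phospholamban (Pln), which restrains the calcium pump of the sarcoplasmic reticulum, was at least 8.3-fold higher, and the actin nucleator leiomodin (Lmod1) at least 5.17-fold. Smtn (log2 ratio 2.72), Flna (2.22) and the cross-linker alpha-actinin (Actn1, 1.18), with Map3k7cl (at least 5.06-fold), Palld (at least 2.36-fold) and Fbxl22 (at least 1.46-fold), completed the 20. The ratio of Fbxl22 rests on 13 UMIs against 0, and its bound does not reach 2-fold. With genes at 0 UMIs set to their bound, 19 of 31 members were at least 2-fold higher and the median log2 ratio was 2.34.

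The members that did not separate mural from endothelial barcodes were mostly those that many cells use. Actb was 8054 CPM in endothelial barcodes (log2 ratio 0.42, interval 0.31 to 0.52) and Actg1 was 2190 CPM (−0.68, −0.90 to −0.45). Tagln2, the transgelin of non-muscle cells, had 507 CPM in mural and 532 CPM in endothelial barcodes (−0.08, −0.50 to 0.37). Myl6 (0.96) and Dstn (0.89) were just inside the 2-fold limit, and both intervals lay above 0. Vimentin (Vim) was lower in mural barcodes, with 621 CPM against 1806 CPM (−1.54, −1.82 to −1.26). So was Sorbs2, an adaptor of adhesion sites and Z-discs, with 100 CPM against 419 CPM (−2.06, −2.74 to −1.40). Csrp1 (0.15), Tln1 (0.57) and Tpm4 (−0.82) lay within 2-fold, as did Actg2 on 2 UMIs. Synpo2 rested on 4 endothelial UMIs.

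Against the intermediate barcodes, which hold the pigmented cells of the stria, 28 members were at least 2-fold higher in mural barcodes, Actg1 and Vim lay within 2-fold, Csrp1 was lower, and Cnn1 and Synpo2 had no UMI. Of 12643 genes, 33.8% were 2-fold higher and 20.7% lower, and the median log2 ratio was 5.08 for the members and 0.27 over all genes. Tagln, Myl9, Tpm2 and Myh11 had 0 UMIs among 244957 in the intermediate class. Their levels in mural barcodes were at least 245-fold, 210-fold, 100.5-fold and 53.8-fold higher. Actg2, with 2 UMIs against 0, was counted among the 28 on too few UMIs for a fold. With genes at 0 UMIs set to their bound, 27 of 30 members were at least 2-fold higher and the median log2 ratio was 3.75. Acta2 had 3 UMIs there (log2 ratio 8.14, interval 6.81 to 10.64). Csrp1, a LIM protein of smooth muscle and of many other cells, had 295 CPM in mural and 694 CPM in intermediate barcodes (−1.23, −1.61 to −0.87).

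To ask which members were also found outside mural cells in both libraries, the share of barcodes with a UMI was computed for each class at 1473 UMIs. In endothelial barcodes, 8 members reached a share of 25% in both libraries, where 4.68% of 11463 genes with a mural UMI did. They were Actb, Actg1, Myl6, Tpm4, Tagln2, Dstn, Sorbs2 and Vim. In intermediate barcodes 4 members did so, Actb, Actg1, Myl6 and Csrp1, where 4.12% of genes did. The other 24 members were under 25% in all 4 of these classes, and 15 of them reached 25% in mural barcodes. The share of all genes under 25% in all 4 was not computed, so the 24 alone show no tie to mural cells. The pattern of the 15 was seen in 1.96% of genes with a mural UMI, beside 15 of 31 members. It was seen in 31.2% of the 722 genes that reached 25% in mural barcodes, beside 15 of 21 members.

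The members found in several cell types had their own order. Actb was in 97.6% and 97.3% of endothelial barcodes of the NG2-DsRed and Tie2-GFP libraries and in 93.9% and 70.1% of intermediate barcodes. Actg1 was in 96.2% and 88.6% of endothelial and in 82.8% and 52.4% of intermediate barcodes. Myl6 was in 83.2% and 69.4% and then in 33% and 36.9%. These 3 genes were present in all 5 classes. Sorbs2 was in 46.5% and 51.1% of endothelial barcodes but in 0% and 1.38% of intermediate ones, and in 6.93% of mural barcodes. Tagln2 (54.2% and 59.8%), Dstn (57.1% and 50.4%) and the nonmuscle tropomyosin Tpm4 (34.2% and 34.9%) were in endothelial barcodes of both libraries and under 25% in intermediate barcodes. Csrp1 had the reverse order, with 63.0% and 39.9% in intermediate barcodes against 24.6% and 18.8% in endothelial and 14.8% in mural ones. Vim was in 86.5% and 81.6% of endothelial and in 56.7% and 17.6% of intermediate barcodes.

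At the other end, Acta2 at equal depth was in 40.4% of mural barcodes, in 2.95% and 0.0276% of endothelial and in 2.25% and 0% of intermediate barcodes. Myl9 was in 87.4% of mural and in 12.5% and 0.240% of endothelial barcodes. The endothelial shares of the NG2-DsRed and Tie2-GFP libraries were 6.52% and 0.197% for Tpm2, 3.75% and 0.191% for Tagln and 3.88% and 0.114% for Des. The libraries were counted with different software versions, and held 99 and 4 mural barcodes. The part of free RNA in these shares was not tested. The shares were 19.5% and 21.8% for Cald1, 11.8% and 21.2% for Tpm1, and 18.9% and 21.0% for Tln1, the gene of talin.

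**Figure D2:**
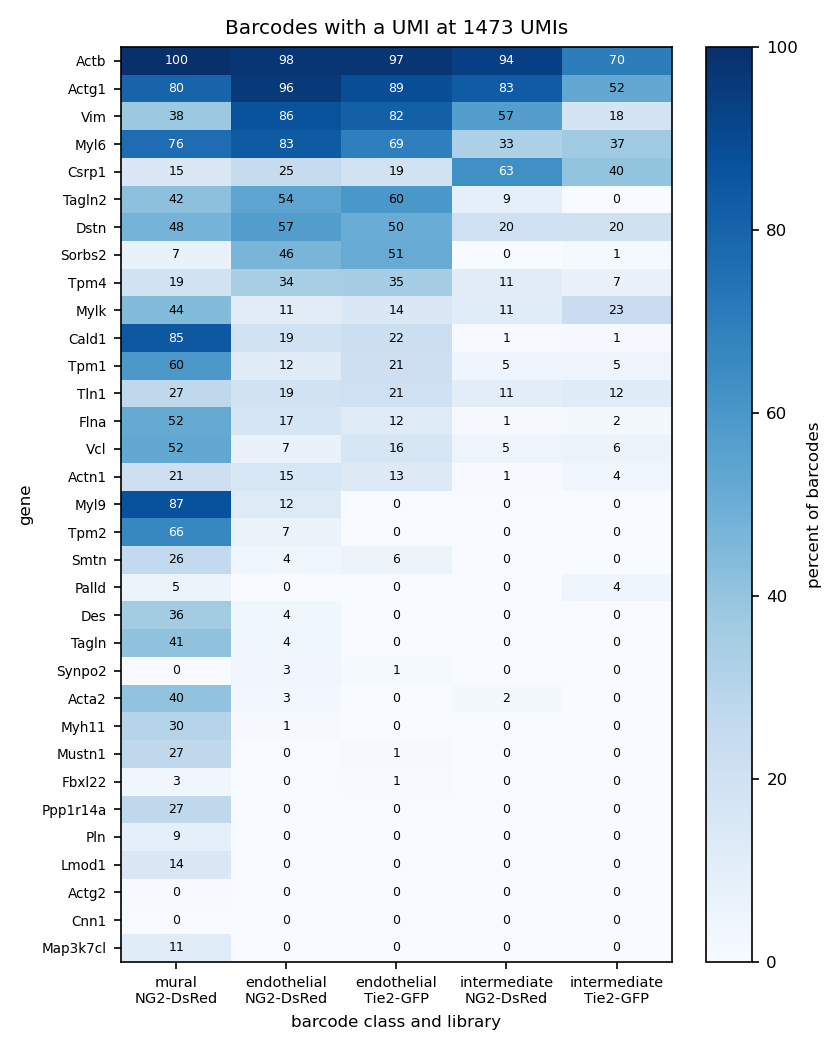
Percent of barcodes with a UMI of each member at 1473 UMIs in the mural barcodes and in the endothelial and intermediate barcodes of both libraries, ordered by the highest share outside the mural class. Actb, Actg1 and Myl6 are at 25% or more in all 5 columns. Under 25% in every endothelial and intermediate column are 24 members, of which 15 reach 25% in the mural column.

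Whether the contractile genes varied as a gradient or as a switch was examined with the sum of Acta2, Tagln and Myh11, the anchor genes. Of the 99 mural barcodes, 41 had no UMI of the 3, 4 had above 0 and below 3 per 10000 UMIs, 13 had 3 to below 10, 17 had 10 to below 30, 6 had 30 to below 100, 13 had 100 to below 300 and 5 had 300 or more. The range below 10 per 10000, called low, held 58 barcodes. The middle range of 10 to below 100 held 23 barcodes, or 23.2% (95% Clopper-Pearson interval 15.3 to 32.8), and the high range held 18. At 1473 UMIs per barcode (89 barcodes) the shares were 57.4%, 23.2% and 19.4%. These ranges cut a continuous measure and are not cell types. Within a factor of 1.25 of the limits lay 7 barcodes at 10 and 2 at 100.

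Per barcode, Acta2 had a lowest, median and highest value of 0, 0 and 6.78 per 10000 in the low range, of 0, 9.37 and 29.9 in the middle range and of 45.5, 122 and 202 in the high range. Tagln had 0, 0 and 8.06, then 0, 5.89 and 46.2, then 22.5, 89.1 and 183. Myh11 had 0, 0 and 6.58, then 0, 2.62 and 15.6, then 8.60, 17.5 and 106. All 3 genes were found in every barcode of the high range. For Acta2 the middle and high ranges did not overlap, and for Tagln and Myh11 they did. Since the ranges were set by the sum of these genes, this is a description of them.

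**Figure D3:**
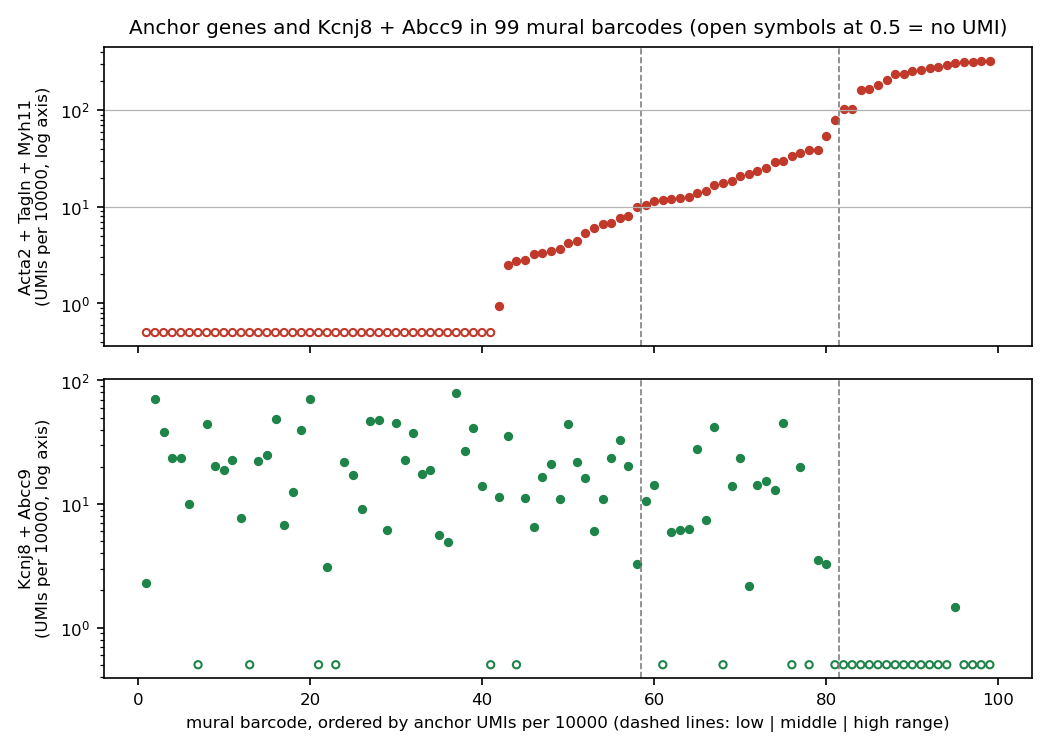
UMIs per 10000 of the 3 anchor genes (top) and of Kcnj8 and Abcc9 together (bottom) in 99 mural barcodes ordered by the anchor genes, on log axes. The anchor genes climb through 23 barcodes of the middle range to 18 of the high range, and Kcnj8 or Abcc9 has a UMI in 52 of 58 low, 18 of 23 middle and 1 of 18 high barcodes.

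Models of a switch and of a gradient were fitted to the anchor counts. With each barcode's depth as offset, 2 sharp levels (a mixture of 2 Poissons) were 420 AIC units worse than the best model and 1 level 4805 units worse. A single continuous spread (1 negative binomial) was 2.51 units behind a mixture of 2 overlapping negative binomials, whose means were 4.49 and 124 per 10000 with 38.9% of barcodes in the upper one. AIC weighs fit against the number of parameters, and differences of a few units do not separate models. For Acta2 alone and for Myh11 alone the single spread was ahead, by 2.21 and 1.64 units, and for Tagln alone it was behind by 3.88. Without the 25% of mural barcodes with the highest share of Malat1 UMIs, the gap for the 3 genes together was 0.40. One wide spread and a pair of broad levels were thus not told apart with 99 barcodes, and 2 sharp levels were far behind both. The sharp levels allow no spread beyond counting error among barcodes of a level. Even Actb, found in all 99 barcodes, had a variance of 15.8 times that of Poisson sampling. The distance of the sharp levels therefore cannot tell a switch from a gradient.

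The other 30 members were then read along the anchor genes. Of these, 27 had at least 10 UMIs in mural barcodes, all but Actg2, Cnn1 and Synpo2. In the high range 20 were at least 2-fold higher than in the low range and 0 were 2-fold lower. Of these 20, Fbxl22, Pln, Sorbs2, Palld and Map3k7cl had under 10 UMIs in low and middle barcodes together. They met the minimum only through the high range, so the minimum in part set their place among the 20. Of 5749 genes 12.3% were 2-fold higher and 24.9% lower, and the median log2 ratio was 1.59 for the 27 members and −0.14 over all genes. The level of 18 members stepped up from low to middle to high, as it did for 16.7% of genes. That of Smtn stepped down (214, 203 and 175 CPM), with an interval of its high over low log2 ratio of −1.21 to 0.59. The remaining 8 had neither order. Among the 18, the interval of middle over low held 0 for Actg1, Mylk, Dstn, Pln, Ppp1r14a, Map3k7cl, Sorbs2, Palld, Actn1 and Vim. For these genes a step from low to middle was not told apart from counting error. Pln, Sorbs2, Palld and Map3k7cl had 2, 1, 2 and 2 UMIs in the middle range.

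Some members were present in all 3 ranges and stepped up. Tpm1 had 427 CPM in low, 901 CPM in middle and 3053 CPM in high barcodes (log2 ratio of high over low 2.83, interval 2.46 to 3.23). Per barcode its lowest, median and highest values were 0, 3.39 and 32.3 per 10000 in the low range, 0, 7.87 and 19.0 in the middle range and 0, 30.2 and 50.5 in the high range, so the ranges overlapped. Tpm2 had 513, 914 and 2702 CPM (2.39). Myl9 had 1520, 2322 and 4590 CPM (1.59, 1.37 to 1.82), and its per-barcode values overlapped too, with medians of 13.7, 19.2 and 44.8 per 10000. Mustn1 had the widest difference between low and high of these genes, with 54.9, 495 and 1362 CPM (4.56, 3.66 to 5.79). In the middle range its median was 0 and 39.1% of barcodes had a UMI. Barcodes at 21.9 and 12.3 per 10000 held most of its UMIs there, so its step from low to middle rests mostly on them. Actb had 8389, 11813 and 13863 CPM (0.72), the smallest of the steps named here.

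Others had most of their UMIs in the barcodes of the high range. Pln had 0, 2 and 72 UMIs in low, middle and high barcodes, and was at least 40.5-fold higher in high than in low barcodes with a floor of 3 counts over the range. Sorbs2 had 0, 1 and 33 UMIs (at least 18.5-fold). Fbxl22, an F-box protein of muscle, had 0, 0 and 13 UMIs (at least 7.32-fold), and Palld, the gene of the actin cross-linker palladin, had 1, 2 and 18. Map3k7cl, a gene expressed in smooth muscle whose role is little known, had 4, 2 and 39 UMIs and Csrp1 15, 3 and 82. Dstn (336, 444 and 2259 CPM), Myl6 (989, 1523 and 4900 CPM) and Vim (226, 355 and 1506 CPM) were found in every range, with most of their difference between middle and high. Median depth was highest in the high range, at 5770 UMIs against 2690 in the low range. The single deepest mural barcode, with 10561 UMIs, lay in the low range. It held most of the Csrp1 UMIs of that range, at 8.52 per 10000.

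Cald1 and Actg1, both high in every range, moved little. Cald1 had 1160, 1738 and 1558 CPM and Actg1 1203, 1459 and 1578 CPM, with log2 ratios of 0.43 (0.11 to 0.74) and 0.39 (0.08 to 0.70). Talin (Tln1) had 214, 317 and 217 CPM (0.03, −0.83 to 0.84). Vinculin was the one member whose interval lay below 0, with 598, 698 and 371 CPM (−0.68, −1.28 to −0.12). For the remaining members the levels differed more. Desmin had 287, 279 and 712 CPM (1.31), level between low and middle. Lmod1 had a like course, with 73.3, 63.4 and 299 CPM (2.00). Mylk (354, 419 and 815 CPM), Ppp1r14a (195, 279 and 464 CPM), Tagln2 (281, 647 and 774 CPM) and Flna (409, 863 and 959 CPM) stepped up by log2 ratios of 1.20 to 1.46. For Actn1 (171, 203 and 268 CPM) the interval of −0.18 to 1.47 held 0. The deepest mural barcode held 10 of the 28 Actn1 UMIs of the low range, and the ratio without it was not computed. Tpm4 was highest in the middle range (104, 330 and 237 CPM).

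**Figure D4:**
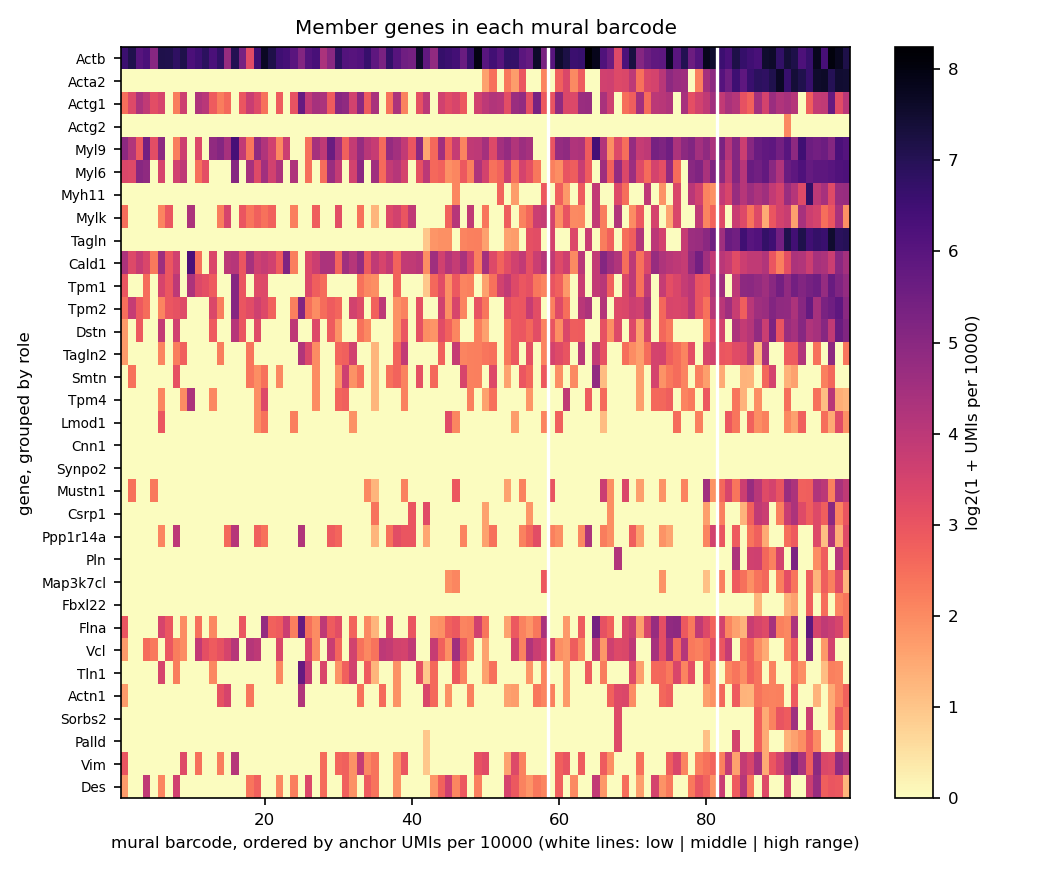
Each member in each of 99 mural barcodes, ordered by the anchor genes, as log2(1 + UMIs per 10000), with genes grouped by role and white lines between the low, middle and high ranges. Myl9, Cald1 and Actb are coloured along the whole row, Tpm1 and Tpm2 darken to the right, and Pln, Sorbs2 and Fbxl22 are coloured almost only among the 18 barcodes of the high range.

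Correlation over single barcodes was measured after thinning each to 1473 UMIs, over 89 mural barcodes from 1 library (10 were shallower). Spearman's correlation with the anchor genes, each anchor against the other 2, was 0.3 or more for 16 of 29 members found in at least 10% of mural barcodes. That is the 3 anchor genes and 13 of the other 26, and no member was at −0.3 or below. Of these 13, Pln, Sorbs2, Palld, Map3k7cl and Csrp1 were found in under 10% of low and of middle barcodes. They met the minimum only through the high range, so the minimum in part set their correlation. Among 5124 genes with the same minimum 1.46% reached 0.3, and among 482 genes found in at least 50% of mural barcodes 9.54% did, beside 7 of 14 members. The median correlation was 0.31 for the 26 members and −0.01 over all genes. Actg2, Cnn1, Synpo2 and Fbxl22 were too rare for a value.

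Acta2 (0.76), Tagln (0.73) and Myh11 (0.68) were tied most closely, then Tpm1 (0.63), Mustn1 (0.58), Tpm2 (0.53), Myl6 (0.49), Csrp1 (0.49), Dstn (0.48), Pln (0.48) and Myl9 (0.47). Vim (0.44), Sorbs2 (0.41), Map3k7cl (0.41), Palld (0.32) and Flna (0.31) completed the 16. Actb (0.299) lay just under the limit and Flna just over it. Mylk, the kinase that switches on myosin, was at 0.26. Lmod1 (0.21), Des (0.16), Ppp1r14a (0.14), Cald1 (0.14), Smtn (−0.02) and Vcl (−0.07) were further below. The median correlation of the 406 pairs of members was 0.13, against −0.02 for pairs of all genes, so most pairs were weakly tied at this depth and the strongest involved the anchor genes, Acta2 and Tagln at 0.73. Pairs among the 20 members with a value that were under 25% outside mural barcodes had a median of 0.12, pairs among the 9 found elsewhere 0.15.

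**Figure D5:**
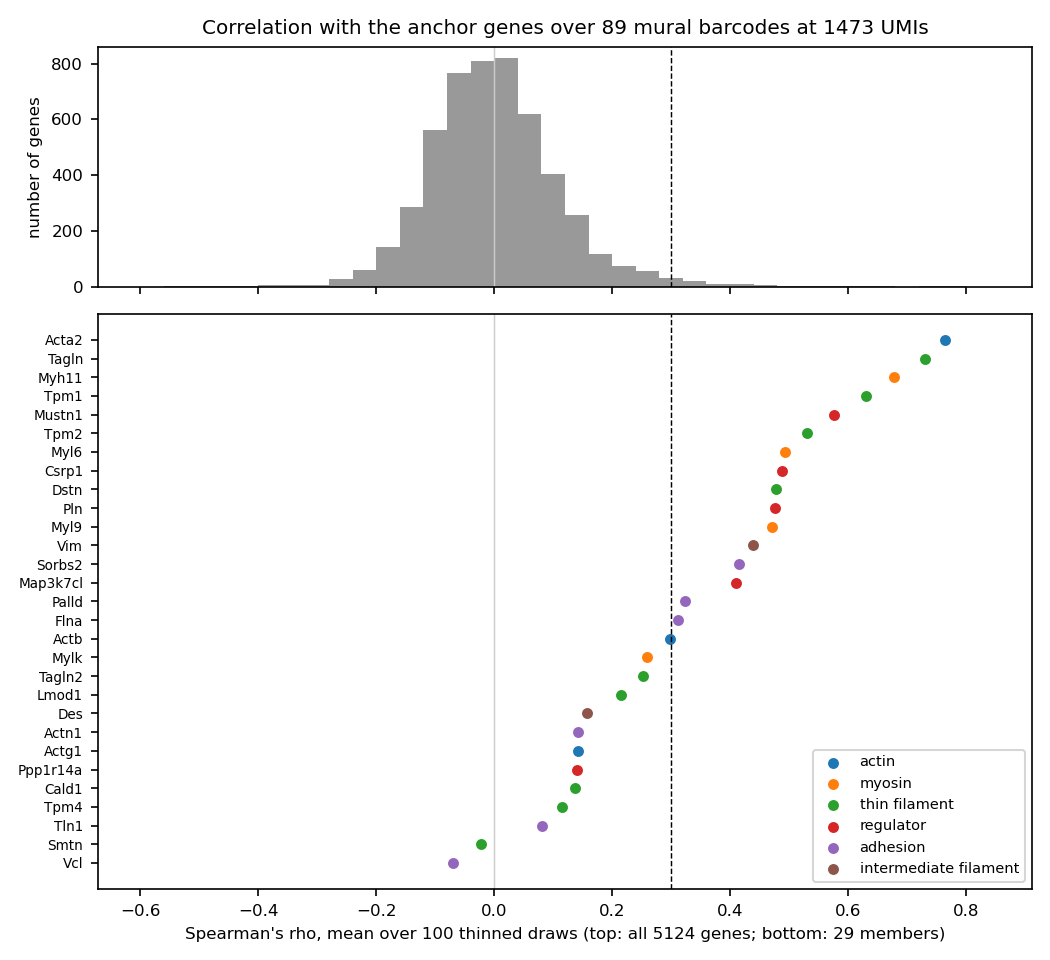
Spearman's correlation with the anchor genes over 89 mural barcodes at 1473 UMIs, as a histogram of all 5124 genes (top) and for each of 29 members coloured by role (bottom), with a dashed line at 0.3. 16 members are at or right of the line and most of the histogram is left of it.

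The tie was also measured within the ranges. Summed here were the 21 members that are not anchors and were under 25% at equal depth in endothelial and intermediate barcodes of both libraries. Several of them, such as Cald1 and Tln1, were still found there below this limit. The summed UMIs of these members and the anchor genes had a mean correlation of 0.69 over all 89 barcodes. The correlation was 0.09 over the 50 of the low range (lowest and highest draw −0.18 and 0.35). It was 0.49 over the 21 of the middle range (0.15 and 0.79) and 0.60 over the 18 of the high range (0.22 and 0.86). The draws overlapped between ranges, but each draw thins the same barcodes again. Their spread therefore does not measure the error from few barcodes, and cannot tell the ranges apart or alike. At full depth 41 of the 58 low barcodes had no anchor UMI, which leaves little to rank. The low range therefore cannot tell a weak tie from too few anchor UMIs. In the same 89 barcodes the 21 members had a median of 64.5 per 10000 UMIs in low barcodes (lowest 18.9, highest 111), 99.1 in middle (35.9 to 148) and 193 in high barcodes (87.7 to 303), so neighbouring ranges overlapped.

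Other features of the barcodes moved with the anchor genes, and their part in the results was not tested. The correlation with depth was 0.49 over 99 barcodes. The share of the nuclear RNA Malat1 had a median of 12.8% of UMIs in low, 9.19% in middle and 7.57% in high barcodes (correlation −0.48), and that of ribosomal protein genes 3.36%, 4.39% and 9.50% (correlation 0.50). After thinning on the UMIs that are left without Malat1, mitochondrial and ribosomal protein genes, 17 members reached 0.3, and without the 25% of barcodes with the highest Malat1 share 16 did. Basal and intermediate cell genes were found in a few low barcodes, of which 2 had UMIs of at least 2 of Cldn11, Gjb2, Dct and Kcnj10, and 16 members reached 0.3 without those. Col1a2 had 281, 317 and 51.6 CPM in low, middle and high barcodes.

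Among genes that are not members and were found in at least 20% of mural barcodes, those with the highest correlation with the anchor genes included Crip1 (0.59), Tesc (0.47), Rasd1 (0.47), Wtip (0.46), Rps2 (0.46), Eef1a1 (0.45), Rps29 (0.43), Rpsa (0.42) and Sncg (0.42). Crip1, a small LIM protein, had 739, 1358 and 6220 CPM in low, middle and high barcodes. Those with the lowest included Malat1 (−0.52), Abcc9 (−0.50), Vtn (−0.50) and Pdgfrb (−0.44). Vtn and Pdgfrb are genes of the mural rule, which every barcode here had to meet in part, and had 6911 and 2638 CPM in low against 866 and 691 CPM in high barcodes. Kcnj8 and Abcc9 together had 2131 CPM in low, 1167 CPM in middle and 10.3 CPM in high barcodes. They had a UMI in 78.3% of middle barcodes, which all have anchor UMIs by the definition of that range.

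The 30 related genes of the contractile pathway included transcriptional regulators, myosin phosphatase, soluble guanylate cyclase, integrins and other actin binders. Of these, 15 were at least 2-fold higher and 3 lower in mural than in endothelial barcodes, where 24.5% and 20.6% of all genes were. Against intermediate barcodes 21 were 2-fold higher, where 33.8% of all genes were. Along the anchor genes Pdlim3, an actin-binding LIM protein gene, had a correlation of 0.37, and the median of the 27 with a value was 0.02. Between high and low range, 5 of 27 with at least 10 UMIs were 2-fold higher and 4 were 2-fold lower. Of all genes with as many UMIs, 12.3% were higher and 24.9% lower. Gucy1b1, the beta subunit of the nitric oxide receptor, had 1197, 926 and 547 CPM in low, middle and high barcodes. Srf, the factor that binds CArG boxes in contractile genes, had 12, 6 and 8 UMIs. Its muscle coactivator Myocd had 0, 2 and 7, and it had none in the endothelial or intermediate barcodes of either library.

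The CArG box is the DNA element bound by SRF. It was sought in the members' promoters. RefSeq promoters (GRCm38.p6) were matched by symbol for 28 members, with 35 start sites. The other 5, Tagln, Myh11, Actb, Actg2 and Map3k7cl, had no promoter in the set and were not searched. In the 250 bases before the start, 5 of the 35 (14.3%) held a box whose 6 inner bases were all A or T, against 1.47% of 32851 promoters. With at most 1 other inner base allowed, 7 (20.0%) held a box, against 8.59%. The search needs no second strand, since both patterns read the same on either. Acta2 and Myl9 held a pair of boxes each. The boxes of these genes, of Fbxl22, which was found only in the high range among mural barcodes, of Actg1, which was found in every class, and of Vcl, which was lower in the high range, are shown 5′ to 3′ on the gene's strand with 10 bases on each side and the box in capitals.
Acta2, chr19:34255438-34255467 (−), 84 bases before the start: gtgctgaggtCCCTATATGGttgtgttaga
Acta2, chr19:34255388-34255417 (−), 34 bases before the start: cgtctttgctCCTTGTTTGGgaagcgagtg
Myl9, chr2:156775293-156775322 (+), 161 bases before the start: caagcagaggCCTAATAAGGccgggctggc
Myl9, chr2:156775355-156775384 (+), 99 bases before the start: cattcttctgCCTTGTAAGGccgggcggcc
Fbxl22, chr9:66514796-66514825 (−), 222 bases before the start: aaaagaaatcCCTTTTAAGGaaaacttgta
Actg1, chr11:120348566-120348595 (−), 90 bases before the start: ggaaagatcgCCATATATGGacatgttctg
Vcl, chr14:20929161-20929190 (+), 227 bases before the start: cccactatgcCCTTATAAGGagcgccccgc

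Acta2 has both its boxes with 1 inner base other than A or T, Myl9 has 1 of each kind, and Fbxl22, Actg1 and Vcl have a strict box. Actg1, found in every class, and Fbxl22, found only in the high range, thus both had one. No box of either kind was found for Pln, Sorbs2, Palld and Csrp1, which had most of their UMIs in the high range. The windows hold no measure of binding. By the GENCODE M21 annotation of GRCm38, Acta2 lies on chromosome 19 from 34241090 to 34255590 on the minus strand, Tagln on chromosome 9 from 45929619 to 45936058 on the minus strand, and Myh11 on chromosome 16 from 14194535 to 14291372 on the minus strand. Both Acta2 windows lie inside this GENCODE span of Acta2, because their distances are counted from a RefSeq start within it. Tagln overlaps Pcsk7 on the opposite strand, Pln overlaps Cep85l and Fbxl22 overlaps Herc1 in the same way. Over all members 5 overlap another gene on the same strand and 15 one on the opposite strand.

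The mixed barcodes, which carry both endothelial and mural genes, held the anchor genes at lower levels. In the NG2-DsRed library 24 of 45 had an anchor UMI, 8 were in the middle range and 1 in the high range, and the summed level was 905 CPM against 7695 CPM in mural barcodes. Against mural barcodes, 20 members were 2-fold higher in mural and 2 lower, where 25.7% and 19.1% of 13078 genes were. In the Tie2-GFP library 9 of 32 mixed barcodes had an anchor UMI and 2 were in the middle range. Of its 4 mural barcodes 1 held all 40 anchor UMIs, at 108 per 10000. Its 352 endothelial barcodes held 7 anchor UMIs among 2901463, a level of 2.41 CPM, and its 87 intermediate barcodes held 1.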

How the data were processed

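The deposited values are UMI counts, not normalized, from the 10x Chromium 3′ platform, which the authors gave as 1 matrix of genes and barcodes per library. The matrix headers name software 3.0.0 for the NG2-DsRed and 7.0.0 for the Tie2-GFP library, and the submitters' processing notes name mm10 and bcl2fastq 2.20.0.422. Whether intronic reads were counted is not given in the sources used here, and CPM levels were compared only within a library, with equal-depth shares of both given side by side. The libraries held 1232599 (NG2-DsRed) and 5432289 UMIs (Tie2-GFP). Python 3.11.15, numpy 2.4.6, scipy 1.17.1 and pandas 2.3.3 were used. All deposited barcodes entered, and the study's limits were an alternative. No doublet caller was run, and barcodes with both programs formed the mixed class. UMIs were summed per class, with 0.5 counts added for ratios and exact conditional binomial intervals. Equal-depth shares are expected values under sampling without replacement at 1473 UMIs, the 10th percentile of mural depth. Correlations are Spearman's, and those at equal depth are a mean over 100 seeded draws. The class ratios, the mixture fits and the correlation with the anchor genes were tried on simulated counts. The equal-depth share was compared with random thinning for Acta2, and the other steps were not tried in this way. The members, lists, anchor genes and tests were chosen with earlier results of these data known. Named in full were the 12 highest members in mural barcodes, the anchor genes, members found in other cells of both libraries, and the 10 highest and 5 lowest other genes by correlation, of which some are not reported here. The members singled out along the anchor genes, Crip1, Gucy1b1, Srf and Myocd were chosen after their values were seen.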

Additional observations from a re-analysis of the deposited data

How the results depend on the processing

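No paired analysis was possible because each line is 1 library and no result comes from a test between replicates. Each result was recomputed under other settings, some of them (those on Malat1, ribosomal protein genes, basal cell genes, the mural minimum and Myh11 alone) chosen after seeing the data. The count of members at a correlation of 0.3 was 25 and the median of member pairs 0.40 without thinning, where deeper barcodes have more UMIs of every gene. Over the other alternatives the count ranged from 11 to 18 of the members tested. Of the 16 members, 14 reached 0.3 under every one of 14 alternatives that gave them a value. Flna missed it under 3 and Palld under 1. The 14 include the 3 anchor genes, and Pln, Sorbs2, Map3k7cl and Csrp1, whose correlation the detection minimum in part set. All alternatives drew on the same library. A minimum share of 10% put 15 members in endothelial or intermediate barcodes of both libraries in place of 9. A middle range of 5 to below 200 per 10000 held 35.4% of mural barcodes. The AIC gap between 1 and 2 negative binomials (2.51) was −2.21 for Acta2 alone, −1.64 for Myh11 alone, 3.88 for Tagln alone and 0.40 without the 25% of barcodes with the highest Malat1 share, and the cause was not tested. The counts against endothelial (19 to 21) and intermediate barcodes (24 to 28) stayed within 1.5 times of the values given. Of the single ratios and correlations, 14 of 378 and 16 of 397 moved beyond their interval and none changed sign among those called. The 16 endothelial barcodes of the NG2-DsRed library and their 114602 UMIs limit every ratio against that class, and a member at 0 there could have a level of up to 26.2 CPM.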
